A study of Mus musculus with 6 samples.

Results

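The genes described here are 35 genes that microglia, the resident macrophages of the brain, are known to raise in neurodegeneration, demyelination or acute injury. They were chosen by name, and all 35 were found among the 23462 genes named on the array, where 47 probes read them. The microglia came from mice with acute ischemic stroke (AIS) and had been selected with a kit for the surface receptor P2RY12. The 3 control samples were from PGC-1α f/f mice, whose PGC-1α allele is flanked by loxP sites and linked to the fluorescent reporter eGFP. The 3 mPGC-1α samples were from mice with that allele and a tamoxifen-inducible Cre at the Cx3cr1 locus, made to overexpress PGC-1α in microglia. PGC-1α is a transcriptional coactivator best known for driving mitochondrial biogenesis. All 6 samples were labelled as male mice of 10 weeks, the controls being littermates, and each was hybridised to 1 array. The time after stroke for the arrays, and whether animals were pooled for a sample, are not given in the sources used here. No uninjured mice are among the 6 samples, so the values compare the genotypes after stroke and do not show the response to stroke itself.

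The program that these genes represent was described in microglia around amyloid plaques and damaged myelin, and related states follow stroke. Part of it depends on TREM2, a surface receptor that senses lipids and lipoproteins and signals through the adaptor TYROBP to the kinase SYK. As microglia enter such states, genes of the resting state such as P2ry12 and Tmem119 fall, while genes for lysosomal, lipid-handling, adhesion and secreted proteins rise. Several of the genes, among them Spp1, Lgals3 and Gpnmb, are also expressed by macrophages that enter the brain from blood.

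A level below is the log2 processed signal of a probe minus the 75th percentile of its array. A difference is mPGC-1α minus control on that scale, and the standard error (SE) comes from limma fitted to all tested probes. Levels of different probes are not comparable with each other. Errors of group means are SD. Since nothing in the labels says how many animals each sample held, the p-values measure only the spread between these samples. As the cells were measured in bulk, fewer cells of a type and less RNA per cell cannot be told apart.

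The sorted cells carried their microglial markers, while Ppargc1a and, on 5 arrays, genes of the sex chromosomes did not match the labels. P2ry12 had levels of 3.94 to 4.40 and Tmem119 levels of 5.15 to 5.52, well above background on all 6 arrays. Ppargc1a, which encodes PGC-1α, was not higher in the mPGC-1α samples: its probes differed by -0.31 (SE 0.24) and -0.41 (SE 0.27), and whether they read the transcript of the added allele is not given. A probe of Cx3cr1, the locus that holds the Cre, differed by -1.23 (SE 0.24, adjusted p = 0.684, limma). The other Cx3cr1 probe, not tested because of marked spots, read 3.96, 4.41 and 3.75 in controls and 3.57, 3.67 and 3.90 in mPGC-1α samples, where the groups overlapped. Control array 2 and the other 5 arrays differed in genes of the sex chromosomes. Xist, the transcript of the inactive X chromosome, was at -4.83 on control array 2 and at -0.57 to -0.11 on the others, and the Y-linked Ddx3y was above background on control array 2 alone. All 6 samples were labelled male, and it is the other 5 arrays whose Xist and Ddx3y go against that label. Why these 5 arrays differ from their label was not tested. Control array 2, the only one whose values match the male label, is in the control group, so the groups were not balanced in these genes. Results are given with and without control array 2, the array unlike the rest, where it mattered.

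No gene of the program passed the test. Of the 35 genes, 34 had a tested probe. Dkk2, a secreted Wnt antagonist, was not well above background on any of the 6 arrays and was not tested. Of the 34, 0 had an adjusted p under 0.05 (limma, Benjamini-Hochberg over all 40745 tested probes), where the background was 0% of those probes, and no adjusted p was below 0.698. Before adjustment, 0 of 34 had a p under 0.05, against 6.09% of the 18222 genes tested. The differences ran from -0.69 for Bhlhe40 to 0.94 for Csf1, so that none reached 2-fold. Their median was 0.12, and the median of all genes was 0.11. Higher mean levels in the mPGC-1α samples were seen for 21 genes and lower for 13, a share of 61.8% higher beside 64.0% of all genes. That split depended on scaling: 13 of 34 were higher after quantile normalization, where their median was -0.03 and that of all genes 0.07, and 12 of 34 in the values as the authors normalized them. The spread within groups was similar too, with a median SD of 0.33 for these genes and 0.32 for all genes.

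**Figure D1:**
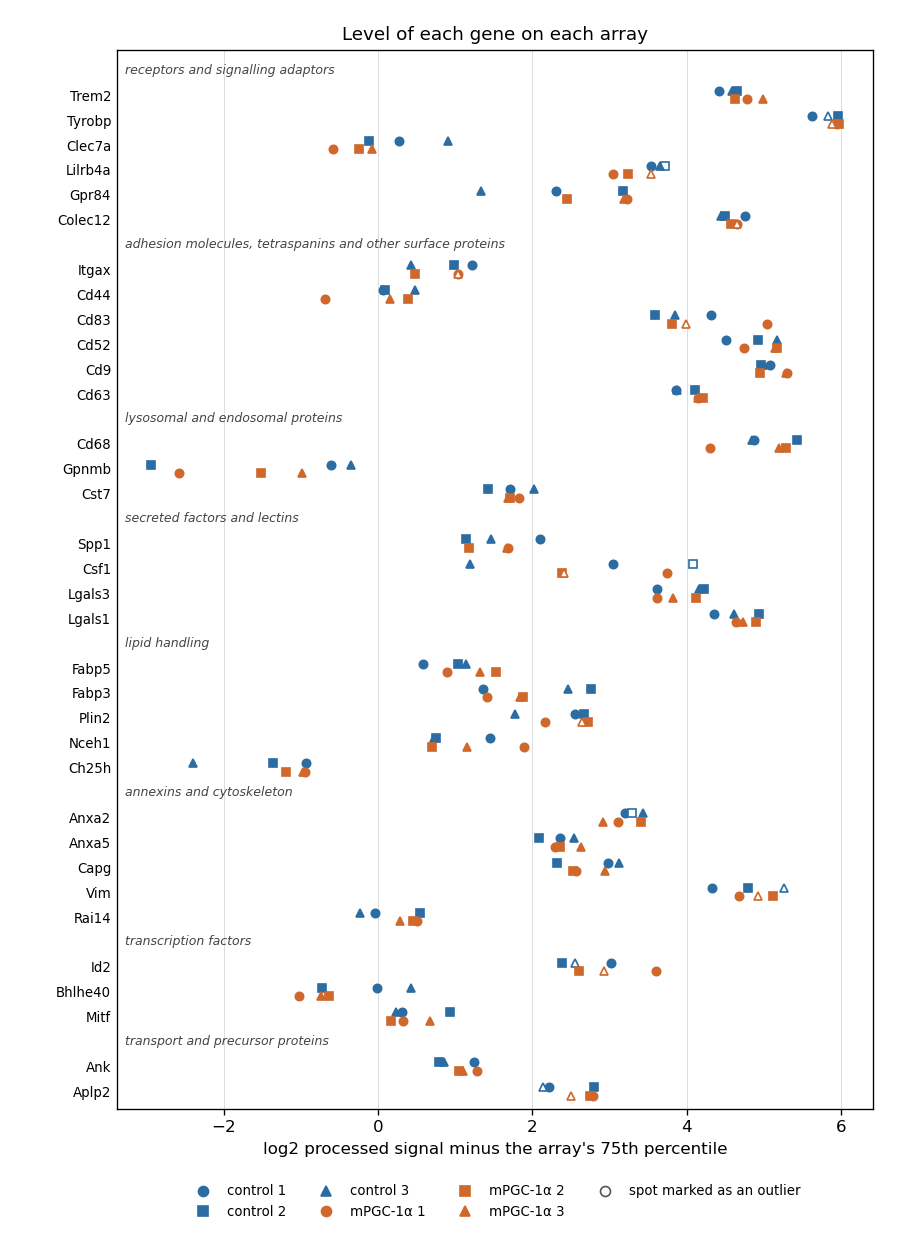
Level of the 34 tested genes on each array (x axis, log2 processed signal minus the array's 75th percentile), by the brightest tested probe of each gene and grouped by role on the y axis. Blue symbols are control arrays, orange symbols mPGC-1α arrays, the symbol shape gives the array number and open symbols are spots marked as outliers and left out of the test. Positions are comparable between arrays within a gene, not between genes, and of the 23 genes without open symbols only Cd63 has groups clear of each other.

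What differences the values allow for each gene is given by the confidence intervals. All 34 of the 95% intervals included 0. For 24 of the 34 genes the interval lay within 2-fold in either direction, and for 5 within 1.5-fold. The half-widths ran from 0.37 to 1.51. The widest interval was that of Csf1, which reached from 0.68-fold to 5.46-fold. The intervals were not adjusted for the number of probes tested. With 3 arrays per group, an interval could lie clear of 0 and the gene still not pass the adjusted test. Cx3cr1, which is not in the program, was such a case at 1 probe, with -1.23 (SE 0.24, adjusted p = 0.684, limma).

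**Figure D2:**
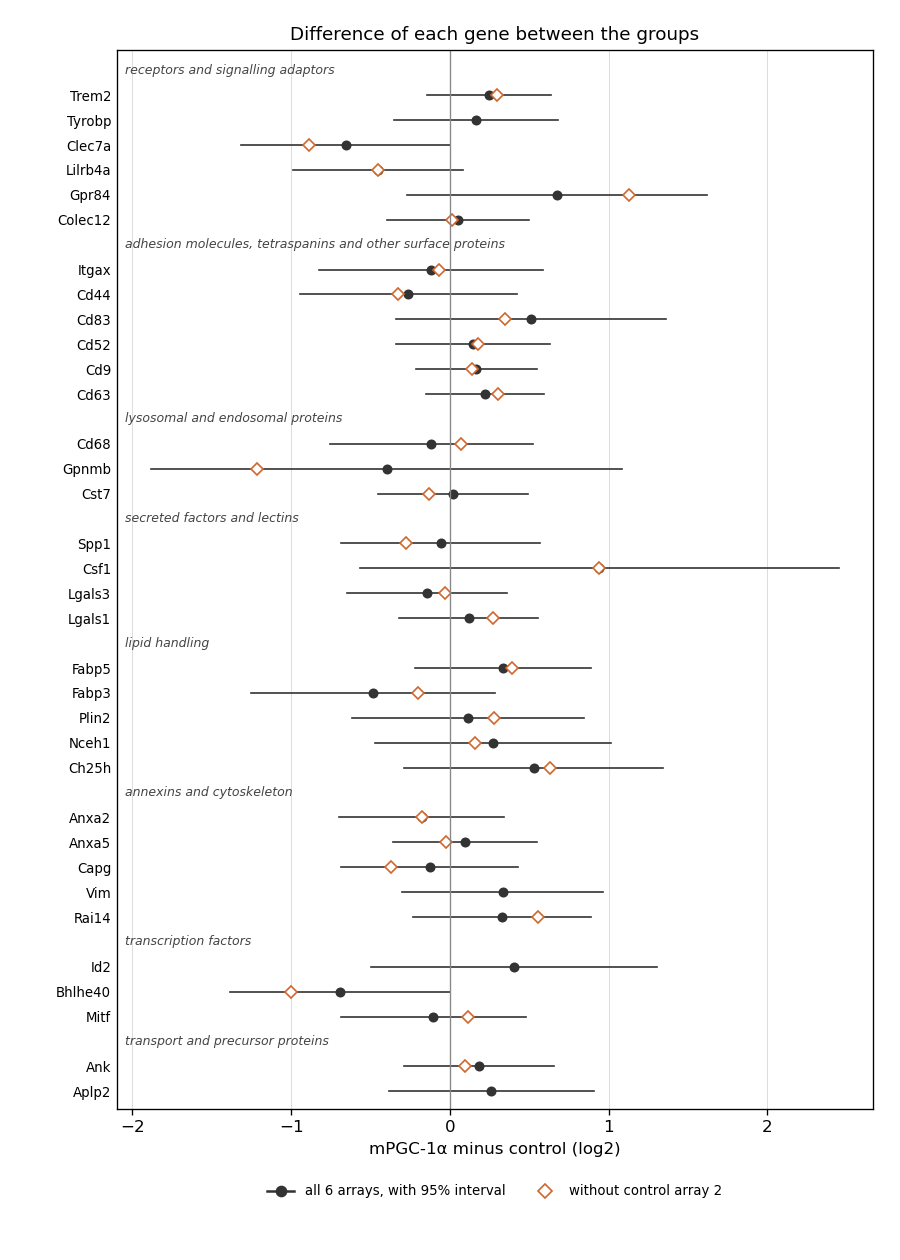
Difference between the groups for each of the 34 tested genes (x axis, mPGC-1α minus control, log2), grouped by role on the y axis. Black points and lines are the difference and its 95% confidence interval over all 6 arrays, all of which include 0, and open diamonds are the difference without control array 2 for the 30 genes that could then be fitted. The diamonds of Gpr84, Gpnmb and Bhlhe40 lie farther from 0 than the points.

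Neither the receptor TREM2 nor its adaptor differed past the test between the genotypes. Trem2 had levels of 4.41, 4.65 and 4.59 in controls, against 4.78, 4.63 and 4.98 in mPGC-1α samples. The ranges touched, since mPGC-1α array 2 lay just under control array 2. The difference was 0.25 (SE 0.17), with an interval from 0.91-fold to 1.55-fold (adjusted p = 0.778, limma). Tyrobp differed by 0.17 (SE 0.22, 2 unmarked arrays per group), and it turned to -0.12 after quantile normalization and -0.10 in the values as the authors normalized them.

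The other receptors of the list had differences of both signs, none past the test. Clec7a, the fungal sugar receptor dectin-1 and a widely used marker of this state, had levels of 0.27, -0.12 and 0.90 in controls, against -0.59, -0.25 and -0.08 in mPGC-1α samples. The groups overlapped because control array 2 fell below mPGC-1α array 3. The difference was -0.66 (SE 0.29, unadjusted p = 0.0510 and adjusted p = 0.699 by limma), and it was -0.50 within slide 1 and -0.98 within slide 2, and -0.38 without control array 3. Lilrb4a, an inhibitory immunoglobulin-like receptor, had unmarked levels of 3.54 and 3.65 in controls and 3.05 and 3.24 in mPGC-1α samples. The marked spots read 3.72 on control array 2 and 3.53 on mPGC-1α array 3, the latter just under control array 1, so that the groups did not overlap with these spots kept either. Its difference was -0.45 (SE 0.23, adjusted p = 0.722, limma) and -0.36 with the marked spots kept. Gpr84, a G protein-coupled receptor for medium-chain fatty acids that inflammatory stimuli induce, had levels of 2.31, 3.18 and 1.34 in controls and 3.22, 2.44 and 3.18 in mPGC-1α samples. Its control arrays spanned a wider range than the groups were apart, with a difference of 0.68 (SE 0.42, adjusted p = 0.758, limma). It was 0.09 within slide 1 and 1.85 within slide 2, and 0.21 without control array 3. The scavenger receptor Colec12 differed by 0.05 (SE 0.20).

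Among the adhesion molecules and tetraspanins, Cd63 was the only gene whose groups did not overlap, of 23 with unmarked spots on all 6 arrays. This tetraspanin of late endosomes had levels of 3.86, 4.11 and 3.87 in controls, against 4.15, 4.21 and 4.14 in mPGC-1α samples. The probe had 10 spots per array, some of them marked, and each level is the mean of the unmarked ones. Every mPGC-1α array was above every control array, by as little as the gap between 4.11 and 4.14. The means were 3.94 ± 0.14 and 4.17 ± 0.04 (n = 3 each), and the difference of 0.22 (SE 0.17) did not pass the test (adjusted p = 0.790, limma). Groups that did not overlap were found for 1 of these 23 genes (4.35%), against 11.9% of all 16191 genes with 6 values. Which gene it was changed with the processing. With marked spots kept, control array 2 rose to 4.21 for Cd63, above mPGC-1α array 3 at 4.16, and Lilrb4a was the 1 gene of 34 without overlap (12.1% of all genes). After quantile normalization it was Lgals3, which was lower (11.4% of all genes). The related tetraspanin Cd9 differed by 0.17 (SE 0.17) and the small glycoprotein Cd52 by 0.15 (SE 0.22). Cd83, a surface protein of activated antigen-presenting cells, differed by 0.51 (SE 0.37), which rested on 1 array: mPGC-1α array 1 stood at 5.05 and all the others between 3.59 and 4.32. The hyaluronan receptor Cd44 differed by -0.26 (SE 0.30) at its brightest tested probe and by -0.06 (SE 0.28) at the other tested probe. Its remaining probe, brighter than these, was not tested because of marked spots on mPGC-1α arrays 2 and 3. It read 2.52, 2.81 and 2.49 in controls and 2.67, 3.26 and 2.47 in mPGC-1α samples. With the marked spots kept, the difference there was 0.19. Itgax, which encodes the integrin chain CD11c, differed by -0.12 (SE 0.31) at its brightest probe. Its other probe differed by -1.40 (SE 0.73, adjusted p = 0.722, limma), was well above background on 5 of 6 arrays and ranged from -6.02 to -2.51 in controls alone.

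The lysosomal genes showed no common direction. Cd68, a heavily glycosylated lysosomal membrane protein, differed by -0.12 (SE 0.28), with levels of 4.87, 5.43 and 4.85 in controls and 4.31, 5.29 and 5.20 in mPGC-1α samples. Its other probe, not tested because of marked spots on mPGC-1α arrays 1 and 3, differed by 0.06 with these spots kept. Gpnmb, a transmembrane glycoprotein of lysosome-stressed macrophages, was the most variable gene of the program, with a pooled SD within groups of 1.16. Its levels were -0.61, -2.94 and -0.35 in controls and -2.58, -1.52 and -0.99 in mPGC-1α samples. Control array 2 was the lowest of all 6 and the other control arrays the highest, so that the difference of -0.40 (SE 0.66) became -1.22 (SE 0.43) without that array. Cst7, which encodes the cathepsin inhibitor cystatin F, differed by 0.02 (SE 0.21).

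Secreted factors and lectins also stayed within the spread of their replicates. Spp1, which encodes osteopontin, had means of 1.57 ± 0.49 and 1.51 ± 0.29 (n = 3 each), a difference of -0.06 (SE 0.28). Lgals3 (galectin-3) differed by -0.14 (SE 0.22) and by -0.10 (SE 0.22) at its other probe, and Lgals1 (galectin-1) by 0.12 (SE 0.19). Csf1, the growth factor that maintains microglia through the receptor CSF1R, had the largest difference of the program and one of the largest spreads. Its brightest probe read 3.05 and 1.20 on the unmarked controls, arrays 1 and 3, against 3.74 and 2.39 on mPGC-1α arrays 1 and 2. The marked spots read 4.08 on control array 2, the highest of all, and 2.41 on mPGC-1α array 3. The difference of 0.94 (SE 0.64, adjusted p = 0.777, limma) therefore rested on 2 values per group and was 0.07 with the marked spots kept. The other 2 probes of Csf1, measured on all 6 arrays, differed by -0.23 (SE 0.47) and -0.12 (SE 0.49).

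Genes of lipid handling were higher in the mPGC-1α samples for 4 of 5, none past the test, and for 3 of 5 after quantile normalization, where Plin2 turned. The fatty acid binding proteins differed in opposite directions, Fabp5 by 0.33 (SE 0.25) and Fabp3 by -0.48 (SE 0.34) and -0.72 (SE 0.36) at its 2 probes. At its brightest probe Fabp3 differed by -0.90 without control array 1, where its unadjusted p was 0.00475 by limma, and by -0.20 without control array 2. Fabp5 was higher in each of the 3 pairs of arrays with the same replicate number. Ch25h, the enzyme that makes an antiviral oxysterol from cholesterol, differed by 0.53 (SE 0.36), a difference that was 0.08 within slide 1 and 1.42 within slide 2, and 0.11 without control array 3 and 0.84 without control array 1. Nceh1, a cholesterol ester hydrolase, differed by 0.27 (SE 0.33). Plin2, which coats lipid droplets, was read by a pair of probes that disagreed. The brighter had unmarked levels of 2.55, 2.66 and 1.78 in controls and 2.17 and 2.71 in mPGC-1α samples, and 2.64 at the marked spot of mPGC-1α array 3, a difference of 0.11 (SE 0.32). The dimmer had levels of -1.49, -2.06 and -2.06 in controls and -2.38, -2.20 and -2.60 in mPGC-1α samples. All the mPGC-1α arrays were lower at this probe, which differed by -0.52 (SE 0.28, adjusted p = 0.727, limma).

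The annexins and cytoskeletal genes differed by -0.18 to 0.33. Anxa2 and Anxa5, which bind membranes in a calcium-dependent way, differed by -0.18 (SE 0.23) and 0.10 (SE 0.20), and the other probe of Anxa2 by -0.45 (SE 0.48). The actin-capping protein Capg differed by -0.13 (SE 0.25) and the intermediate filament protein Vim by 0.33 (SE 0.27). Vim was 0.11 with the marked spots kept, the highest of which was that of control array 3. Rai14, an actin-associated protein, had levels of -0.05, 0.54 and -0.23 in controls and 0.50, 0.45 and 0.29 in mPGC-1α samples, where control array 2 was the highest of all 6. Its difference was 0.33 (SE 0.25), and 0.17 without control array 3.

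Of the 3 transcriptional regulators, Bhlhe40 came nearest to the threshold. This helix-loop-helix repressor had levels of -0.02, -0.72 and 0.42 in controls and -1.02, -0.64 and -0.74 in mPGC-1α samples. Control arrays 1 and 3 were above every mPGC-1α array, and control array 2 lay among them. The difference was -0.69 (SE 0.31, unadjusted p = 0.0502 and adjusted p = 0.698 by limma), and it was -0.46 within slide 1 and -1.16 within slide 2, and -0.43 without control array 3. Id2, which blocks helix-loop-helix factors, differed by 0.40 (SE 0.38). Mitf, a regulator of lysosomal genes, differed by -0.11 (SE 0.26), -0.03 (SE 0.32) and -0.10 (SE 0.32) at its 3 probes. The phosphate and pyrophosphate exporter Ank differed by 0.18 (SE 0.21) and the amyloid precursor-like protein Aplp2 by 0.26 (SE 0.28).

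**Figure D3:**
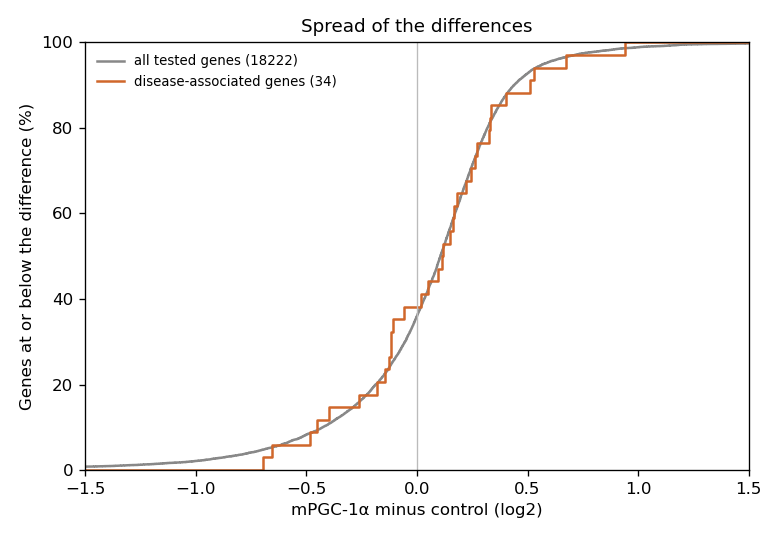
Cumulative share of genes (y axis, percent) at or below each difference (x axis, mPGC-1α minus control, log2, shown from -1.5 to 1.5) for the 34 tested genes of the program (orange) and all 18222 tested genes (grey). The curves run close together, with medians of 0.12 and 0.11, and differences over 0.5 in either direction were 17.6% of the program and 15.5% of all genes.

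Across pairs of arrays with the same replicate number, direction was no steadier in these genes than elsewhere. Arrays 1 and 2 of each group lay on 1 slide and array 3 of each on another. With marked spots kept, 15 of the 34 genes were higher in mPGC-1α samples on both slides, 8 were lower on both and 11 went opposite ways. The slide counts were not made over all genes. Of the 23 genes with unmarked spots on all 6 arrays, 4 kept 1 direction in all 3 pairs of arrays with the same replicate number. Ank, Cd63 and Fabp5 were higher and Clec7a lower. These 4 were 17.4%, against 33.5% of all genes with 6 values. With the replicate number as a block, 0 of the 34 genes passed an adjusted p of 0.05 (limma), where 0.00549% of all genes did.

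Leaving out control array 2 moved several of these values. Of the 30 genes that could then be fitted, 1 passed an adjusted p of 0.05 (limma), where 3.07% of 17482 genes did. It was Bhlhe40, at -1.0035 (SE 0.23, adjusted p = 0.0470). At an unadjusted p under 0.05 the count was 6 of 30, against 20.8% of all genes. Besides Bhlhe40 these were Clec7a at -0.89 (SE 0.26), Gpr84 at 1.13 (SE 0.34), Rai14 at 0.55 (SE 0.19), Gpnmb at -1.22 (SE 0.43) and Lilrb4a at -0.45 (SE 0.18). The median of the genes was then 0.08, and that of all genes 0.22. No other single array, when left out, brought a fitted gene of the program past the adjusted threshold. Fitted genes were 27 and 31 without control arrays 1 and 3, and 24, 24 and 34 without mPGC-1α arrays 1 to 3.

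Genes that work with TREM2 and TYROBP did not pass the test either. Of 18 such genes, 17 were tested and 0 passed an adjusted p of 0.05 (limma), with 10 higher and 7 lower and a median of 0.08. At an unadjusted p under 0.05 there was 1 (5.88%, against 6.09% of all genes), Adam10, a protease that sheds TREM2 from the surface, at -1.05 (SE 0.44). Its control levels were 0.01, -1.85 and -0.41, against -1.67, -1.69 and -2.04 in mPGC-1α samples, so that control array 2 lay within the mPGC-1α range. The kinase Syk differed by 0.37 (SE 0.20), its substrate Plcg2 by 0.14 (SE 0.17) and the TREM2 ligand Apoe by 0.29 (SE 0.17). Of 25 further genes of disease-associated states, 21 were tested, 15 were higher and 6 lower, and 0 had an unadjusted p under 0.05. The largest difference was that of Cd53, -1.09 (SE 0.98), with control array 1 at 3.32 and control array 2 at -0.26. Groups did not overlap for 2 of 9 with 6 unmarked values (22.2%, against 11.9% of all genes). These were Igf1 at -0.37 (SE 0.23) and Ctsa at 0.18 (SE 0.15). The cathepsins Ctsb and Ctsd differed by 0.28 (SE 0.19) and 0.26 (SE 0.22), the lipase Lpl by -0.40 (SE 0.50), and the chemokines Ccl3 and Ccl4 by 0.46 (SE 0.46) and 0.53 (SE 0.53).

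Mean levels of gene lists per array, here and below, include marked spots. On every array the mean level of the 34 genes was nearly the same, 2.40 to 2.47 in controls and 2.44 to 2.55 in mPGC-1α samples, a difference of 0.04. The mean over 17 tested homeostatic microglia genes was 4.26 to 4.46 in controls and 4.03 to 4.44 in mPGC-1α samples. The lowest value, on mPGC-1α array 1, rested on Crybb1, at -0.32 there and 3.81 to 4.53 elsewhere. Without that gene the means were 4.29 to 4.47 and 4.29 to 4.43. The list joined genes of both signs, 10 higher and 7 lower, with 0 past the adjusted test (limma). Differences reached 2-fold for 3 of 17 (17.6%, against 3.25% of all genes). These were Olfml3 at -1.36 (SE 0.66), Cx3cr1 at -1.23 (SE 0.24) and Crybb1 at -1.13 (SE 1.06). Groups did not overlap for 4 of 11 with 6 unmarked values (36.4%, against 11.9% of all genes), 3 higher and 1 lower. P2ry12 and Tmem119 were not tested because of marked spots.

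Markers of other brain cells were mostly at higher levels in the mPGC-1α samples, though none passed an adjusted p of 0.05 (limma) and the lists as such were not tested. Mean levels of 14 neuronal markers were -1.44 to -0.90 in controls and -0.97 to -0.12 in mPGC-1α samples, overlapping ranges, with 13 of the 14 higher and 6 at an unadjusted p under 0.05 (42.9%, against 6.09% of all genes). Oligodendrocyte markers were at -0.73 to 0.04 and 0.21 to 0.94, with 11 of 12 higher and 5 at that p (41.7%), and astrocyte markers at -0.52 to 0.16 and 0.26 to 1.07, with 9 of 9 tested higher and 4 at that p (44.4%). Markers of endothelial and mural cells were at -1.39 to -1.37 and -1.30 to -1.24 (8 of 11 tested), where Rgs5 and Tek were not well above background on any array. The 16 markers of monocytes and border macrophages were at 1.22 to 1.74 in controls and 0.59 to 1.70 in mPGC-1α samples. Of these 14 were lower, with a median difference of -0.19, and 1 was at that p (6.25%, near the share of all genes). It was Arg1, an arginase of alternatively activated macrophages, at -2.20 (SE 0.45, adjusted p = 0.684, limma), while Fn1 was higher by 0.52 (SE 0.24). The 6 tested neutrophil markers were at 2.18 to 2.95 and 1.19 to 3.05. In both myeloid lists mPGC-1α array 1 was the lowest. Of the 34 genes of the program, with marked spots kept, 9, 8 and 8 had their lowest level on control arrays 1 to 3 and 5, 3 and 1 on mPGC-1α arrays 1 to 3. The highest level was on control arrays 1 to 3 for 4, 9 and 8 genes and on mPGC-1α arrays 1 to 3 for 6, 5 and 2. Control arrays thus held most of both extremes, and these counts were not made over all genes. The part of other cell types in the differences of the program was not tested.

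**Figure D4:**
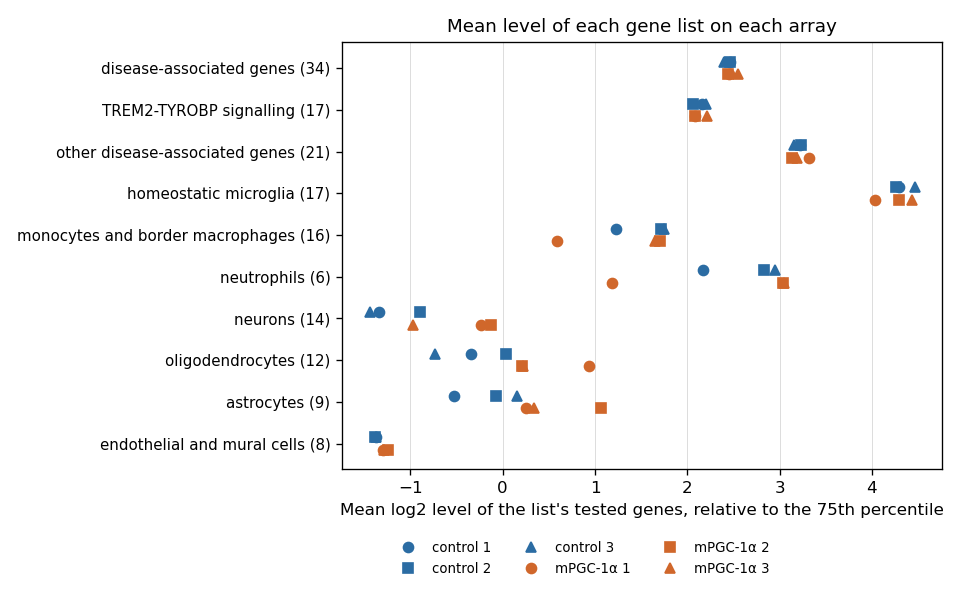
Mean level of each gene list on each array (x axis, log2 relative to the array's 75th percentile), with the number of tested genes in parentheses on the y axis. Blue symbols are control arrays, orange symbols mPGC-1α arrays and the shape gives the array number. Marked spots are included in the means. The disease-associated genes stay between 2.40 and 2.55 on all 6 arrays, while the oligodendrocyte, astrocyte, and endothelial and mural cell lists are higher on every mPGC-1α array than on any control array.

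**Figure D5:**
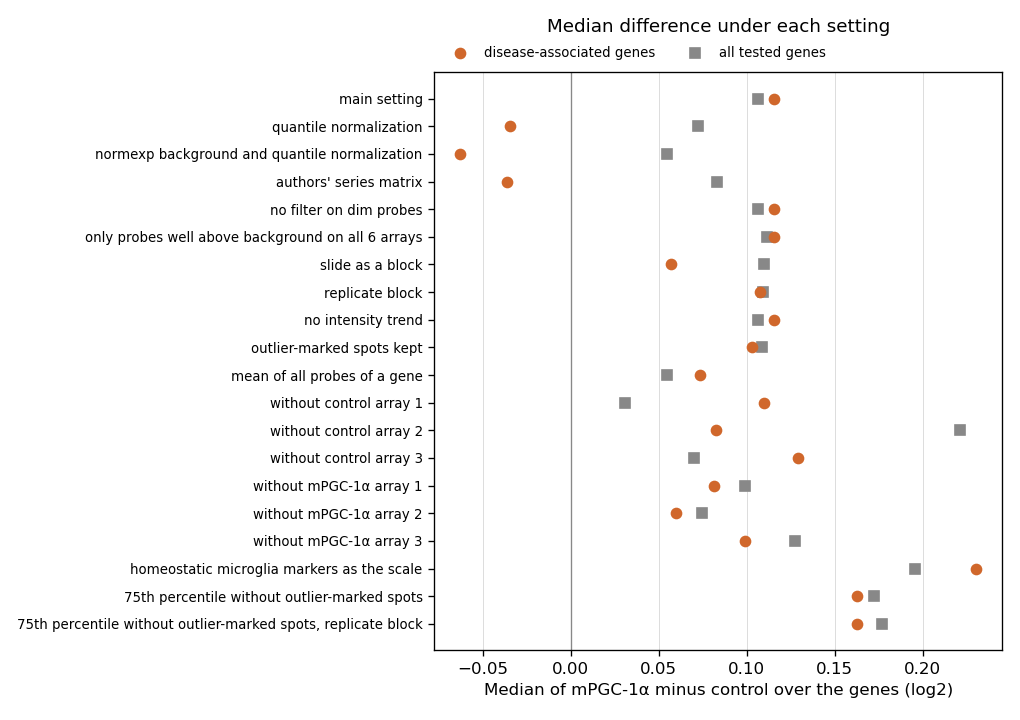
Median difference (x axis, mPGC-1α minus control, log2) of the tested genes of the program (orange circles) and of all tested genes (grey squares) under the main setting and each alternative (y axis). The median of the program runs from -0.06 to 0.23, is below 0 under the quantile-normalized settings and in the values the authors normalized, and is above 0 under all the others drawn.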

How the data were processed

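Total RNA from 6 samples of microglia, sorted by the authors with a P2RY12 kit, had been amplified, labelled and hybridised to Agilent mouse arrays. The dye is given as Cy3 in one label and Cy5 in another, and the files hold 1 green channel. As deposited, each scanner file gives the linear intensity of every spot from Agilent Feature Extraction 11.5.1.1, background-subtracted and not normalized between arrays, with flags (other values) for detection, saturation and outliers. The deposited series matrix, log2 values that the authors normalized in GeneSpring, was used as an alternative.

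Levels were log2 processed signal minus the 75th percentile of an array. The percentile was taken over 56605 non-control probes, after the 59305 spots were averaged by probe with marked spots included. Spots marked as outliers were left out of group means and tests. Probes with marked spots only were kept in the mean levels of gene lists per array and in the counts of highest and lowest levels. Marked spots were 549, 1094 and 3010 on control arrays 1 to 3 and 593, 672 and 4931 on mPGC-1α arrays 1 to 3, and 91.6% to 96.0% of them were brighter than the percentile. Of the brightest probes of the 34 tested genes, 0, 3 and 4 were marked on the control arrays and 0, 0 and 10 on the mPGC-1α arrays. The number of arrays limits the precision. Percentiles were 702 to 1179 and 71.0% to 86.5% of probes were well above background per array. No non-control spot was saturated. A probe was tested if its unmarked spots were well above background throughout a group, on at least 2 arrays, with at least 2 values per group, which kept 40745 probes of 56605, 3750 of them with a missing value. Accessions, without version, named 33767 probes (59.7%) through a RefSeq gene table. A gene was represented by its brightest tested probe. Of the 47 probes of the 35 genes 44 were tested, 8 genes had several tested probes, and those of Csf1 and Plin2 differed in sign. A probe of Cd44 and 1 of Cd68 had too many marked spots.

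Groups were compared in R 4.3.3 with limma 3.58.1 (lmFit, then eBayes with a trend on intensity), with a two-sided test of genotype and no other term. P-values were adjusted after Benjamini and Hochberg over every tested probe. For arrays no test is named in the methods. The scripts were tested on simulated data. Deviations from group means correlated at 0.25, 0.22 and 0.17 between arrays with the same replicate number and at -0.34 to 0.03 between the others. The numbers were therefore taken to pair the samples, from the data and not from the labels, and fitted as a block in an alternative. Replicate number 3 was also the other slide.

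The genes and lists were chosen with earlier results of these data known. By rule, genes with an unadjusted p under 0.05, groups that did not overlap or probes of opposite sign were given per array. The per-array values of other genes were chosen after seeing them. Alternatives were quantile normalization, normexp (offset 50) on median spot and background signals, the authors' values, other detection filters, slide or replicate block, no intensity trend, marked spots kept, the mean of all probes, homeostatic markers as the scale for the median, and each array left out. Taking the percentile without marked spots was added after seeing the data.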

Additional observations from a re-analysis of the deposited data

How the results depend on the processing

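The count of genes past an adjusted p of 0.05 was 0 under every alternative run except without control array 2, where it was 1 (Bhlhe40), so that the counts ran from 0 to 1 over the arrays left out. The count at an unadjusted p under 0.05, 0 in the main setting, was 3 after quantile normalization (Lgals3, Lilrb4a and Anxa2, all lower), 2 after normexp (Lilrb4a and Anxa2), 1 in the authors' values (Lilrb4a), and 2 (Clec7a and Bhlhe40) without a detection filter, with the strict filter, with the slide block, with the replicate block and with the mean of all probes. It ran from 0 to 6 over the arrays left out, where 24 to 34 of the genes could be fitted. The percentile without marked spots, added after seeing the data, gave 0, and with the replicate block 3 (Clec7a, Bhlhe40 and Gpr84). The replicate block changed no call, the adjusted p of Clec7a and Bhlhe40 being 0.298 and 0.355. Over all probes 0 were called in the main setting, 2102 without control array 2, and 1720 with that percentile and the replicate block; the cause was not tested. The median difference ran from -0.06 to 0.23 and the count without overlap was 1 in the main setting (Cd63), after quantile normalization (Lgals3) and with marked spots kept (Lilrb4a), a different gene each time.

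Of the 34 genes, 16 kept their direction under every alternative in which they could be fitted. Among these, Lilrb4a, Id2 and Aplp2 were fitted in 14 alternatives and Cd83 and Anxa2 in 16, against 18 for Trem2. The missing ones were fits with an array left out. Genes that did not keep their direction turned as follows, none of them past the adjusted threshold, and the cause was not tested. After quantile normalization the differences were Tyrobp -0.12, Cd9 -0.0343, Cd52 -0.0339, Lgals1 -0.0343, Colec12 -0.162, Anxa5 -0.0146, Plin2 -0.011 and Cst7 -0.0687. After normexp they were Tyrobp -0.16, Cd9 -0.0672, Cd52 -4e-04, Lgals1 -0.15, Colec12 -0.20 and Anxa5 -0.0583. In the authors' values they were Tyrobp -0.10, Cd9 -0.0225, Cd52 -0.0173, Vim -0.0484, Lgals1 -0.0238, Colec12 -0.0917, Csf1 -0.0229, Anxa5 -0.0092 and Cst7 -0.0674. With the slide block and with the replicate block, Colec12 was -0.0062 and Plin2 -0.17. With the mean of all probes, Csf1 was -0.0508 and Plin2 -0.29. With the percentile without marked spots, Colec12 was -0.025 and Spp1 0.0176, and with the replicate block added, Colec12 -0.0181, Plin2 -0.18 and Spp1 0.0176. Over the arrays left out, differences ran from -0.30 to 0.20 for Cd68, -0.0301 to 0.30 for Cd52, -0.0185 to 0.27 for Lgals1, -0.0062 to 0.14 for Colec12, -0.37 to 0.03 for Capg, -0.0252 to 0.20 for Anxa5, -0.17 to 0.28 for Plin2, -0.13 to 0.17 for Cst7, -0.27 to 0.21 for Spp1, -0.0499 to 0.55 for Nceh1, -0.34 to 0.0501 for Itgax, -0.25 to 0.11 for Mitf, -0.48 to 0.0589 for Cd44 and -1.22 to 0.0768 for Gpnmb. Dim probes, as those of Dkk2 and the dimmer probe of Itgax, limit what can be read.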
